A study of Mus musculus with 8 samples.

Results

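The 10 genes described here are the metallothionein genes Mt1 and Mt2, the factor gene Mtf1, the SLC30 genes Slc30a1, Slc30a5, Slc30a6 and Slc30a9, and the SLC39 genes Slc39a1, Slc39a6 and Slc39a10. They were taken by symbol from a table of 37310 genes, and all 10 were among the 12941 genes tested. Levels are in FPKM, a read count divided by transcript length and by the library's mapped reads. All but Slc30a6 had at least 1 FPKM in every library. Slc30a6 reached 1 FPKM in its 4 controls and in 2 treated libraries, so it passed the filter of 4 libraries through the group in which it was high.

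Metallothioneins are small cysteine-rich proteins that bind zinc and copper, and with the zinc transporters they set how much free zinc a cell holds. When zinc rises, the transcription factor MTF1 binds metal response elements in the promoters of the metallothionein genes and of the zinc exporter gene Slc30a1 and raises their transcription. Most transporters of the SLC30 (ZnT) family move zinc out of the cytosol, into organelles or out of the cell. Those of the SLC39 (ZIP) family move zinc into the cytosol. The mouse oocyte takes up zinc as it matures and releases part of it at fertilization.

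The libraries were polyadenylated RNA of mouse embryos at the 2-cell stage, when the embryonic genome becomes active. Fertilized eggs were cultured in G1 medium with 6 µM triclocarban, an antibacterial compound of soaps (4 libraries), or with an equal volume of the solvent DMSO as control (4 libraries). The labels do not state strain, age of the dams, hour of collection, embryos per library or the zinc content of the medium. They also do not say that libraries came from separate cultures, so the p-values rest on a spread between libraries that may be technical only.

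The depth was estimated from the low values only roughly, as 6900000 to 13600000 fragments in treated and 11300000 to 14800000 in control libraries, with triclocarban replicate 2 the lowest. Controls 1 and 2 stood apart from controls 3 and 4 for every one of the 10 genes: both of one pair lay above both of the other, with controls 3 and 4 the higher pair for 7 genes and the lower for 3. The share of all tested genes split in this way was not counted, so the split cannot be read as particular to these genes. The labels describe 2 ways of preparing libraries, in the same words for all samples, and do not say which library was prepared in which way, so a part of the preparation in the spread between controls was not tested. Values without either pair of controls stand beside the results that depended on them. Of the 2-cell markers, Zscan4c, Zscan4d, Zfp352, Usp17lc and Eif1a were all present, and their summed level was 159.9 to 483.8 FPKM in treated and 364.3 to 510.1 FPKM in control libraries. They went both ways by the test used below: Eif1a (change -2.97) and Zfp352 (-1.14) were lower, Zscan4c (1.27) was higher, and the other 2 did not pass the threshold. The 8 cumulus and granulosa cell markers summed to 9.02 to 17.8 FPKM in treated and 4.65 to 8.99 FPKM in control libraries, with Amh at 0 throughout. These also went both ways: Cyp19a1 (change 1.55) and Fshr (1.16) were higher, Tnfaip6 (-1.63) was lower, and 5 were below the filter. Fshr passed the filter through its treated libraries and Tnfaip6 through its controls. The 3 blood cell markers summed to 7.01 to 26.95 FPKM in treated and 37.8 to 68.2 FPKM in control libraries, nearly all of it Hba-a1, with Hbb-bs at 0 throughout. The 6 markers of RNA stored in the oocyte summed to 4343 to 5278 FPKM in treated and 1678 to 3573 FPKM in control libraries, most of it Oosp1 and Bmp15. Of these 6, 4 were higher, Zp3 was lower (change -1.14) and Gdf9 did not pass the threshold, where 11.3% of all tested genes were higher and 30.8% lower. The share of FPKM from mitochondrially encoded genes was 11.1 to 17.6% in treated and 16.6 to 24.3% in control libraries. The part of these cells, RNAs and shares in the results was not tested. Fewer cells of a type and less RNA per cell cannot be told apart in such bulk libraries.

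Promoter sequences are shown because Mt1, Mt2 and Slc30a1 are known targets of MTF1, and all of these genes fell. The core of the metal response element was searched as TGCACNC or TGCGCNC on both strands in RefSeq windows of 250 bases before to 50 bases after each annotated start (GRCm38.p6). Windows were found for 9 of the 10 genes. Each sequence below is the plus strand, 5′ to 3′, and ends just before the first annotated transcript start, with capitals for motif matches, including matches whose motif lies on the other strand. Mt1 is at chr8:94178839-94179081, Mt2 at chr8:94172368-94172617 and Slc30a1 at chr1:191906531-191906766.
Mt1: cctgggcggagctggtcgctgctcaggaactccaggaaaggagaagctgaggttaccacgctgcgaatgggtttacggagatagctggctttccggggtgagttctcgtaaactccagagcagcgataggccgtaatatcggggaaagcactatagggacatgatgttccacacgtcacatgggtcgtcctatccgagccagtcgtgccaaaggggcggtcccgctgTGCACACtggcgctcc
Mt2: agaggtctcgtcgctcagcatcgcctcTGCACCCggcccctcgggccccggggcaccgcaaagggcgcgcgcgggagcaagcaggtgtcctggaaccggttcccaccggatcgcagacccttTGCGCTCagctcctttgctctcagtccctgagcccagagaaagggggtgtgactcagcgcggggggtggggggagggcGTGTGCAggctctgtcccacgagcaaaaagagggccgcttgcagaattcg
Slc30a1: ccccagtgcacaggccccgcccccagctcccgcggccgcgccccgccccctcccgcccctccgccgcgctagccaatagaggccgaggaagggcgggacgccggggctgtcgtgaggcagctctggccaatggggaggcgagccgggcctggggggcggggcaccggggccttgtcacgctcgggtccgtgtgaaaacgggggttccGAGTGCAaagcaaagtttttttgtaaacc

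The whole 300-base window of Mt2 held 4 matches, that of Mt1 held 3, that of Slc30a1 held 2 and that of Slc30a5 held 1. The windows of Mtf1, Slc30a6, Slc30a9, Slc39a1 and Slc39a10 held none of these letters. Among all 32851 promoter windows, 25.7% held at least 1 match, 7.11% at least 2, 1.97% at least 3 and 0.517% at least 4. The other 2 matches of Mt1 lie together just after the RefSeq start, at chr8:94179090-94179117 on the plus strand, and upstream of the other annotated Mt1 starts at 94179211 and 94179241 on chromosome 8.
Mt1 site: cTGCACTCcgcccgaaaagTGCGCTCgg
All 4 genes with a match fell, where 30.8% of all tested genes were lower. Of the genes with a window and no match, Slc30a6 and Slc39a1 fell, and Mtf1, Slc30a9 and Slc39a10 did not pass the threshold. Whether matches and falls go together was not tested. A match is a run of letters and not a measured binding site. On chromosome 8 the Mt1 window ended at 94179138 and the Mt2 window at 94172667. The bases from these ends to the later annotated starts of Mt1 and of Mt2 (94172860) were not searched.

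Triclocarban embryos had far less metallothionein RNA than control embryos. Of the 10 genes, 6 fell, 0 rose and 4 did not pass the threshold (limma on log2(FPKM + 1), Benjamini-Hochberg adjusted p under 0.05 over all genes tested). The genes that fell were Mt1, Mt2, Slc30a1, Slc30a5, Slc30a6 and Slc39a1. In the whole comparison 30.8% of tested genes were lower and 11.3% higher, 42.1% in either direction. For the same 6 genes every treated library lay below every control, as it did for 30% of tested genes. At an unadjusted p under 0.05, 1 of the 10 genes, Mtf1, was higher. The share of all tested genes that were higher at this looser threshold was not counted. The median change of the 10 genes was -2.11 on the log2(FPKM + 1) scale, against -0.19 for all tested genes.

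**Figure D1:**
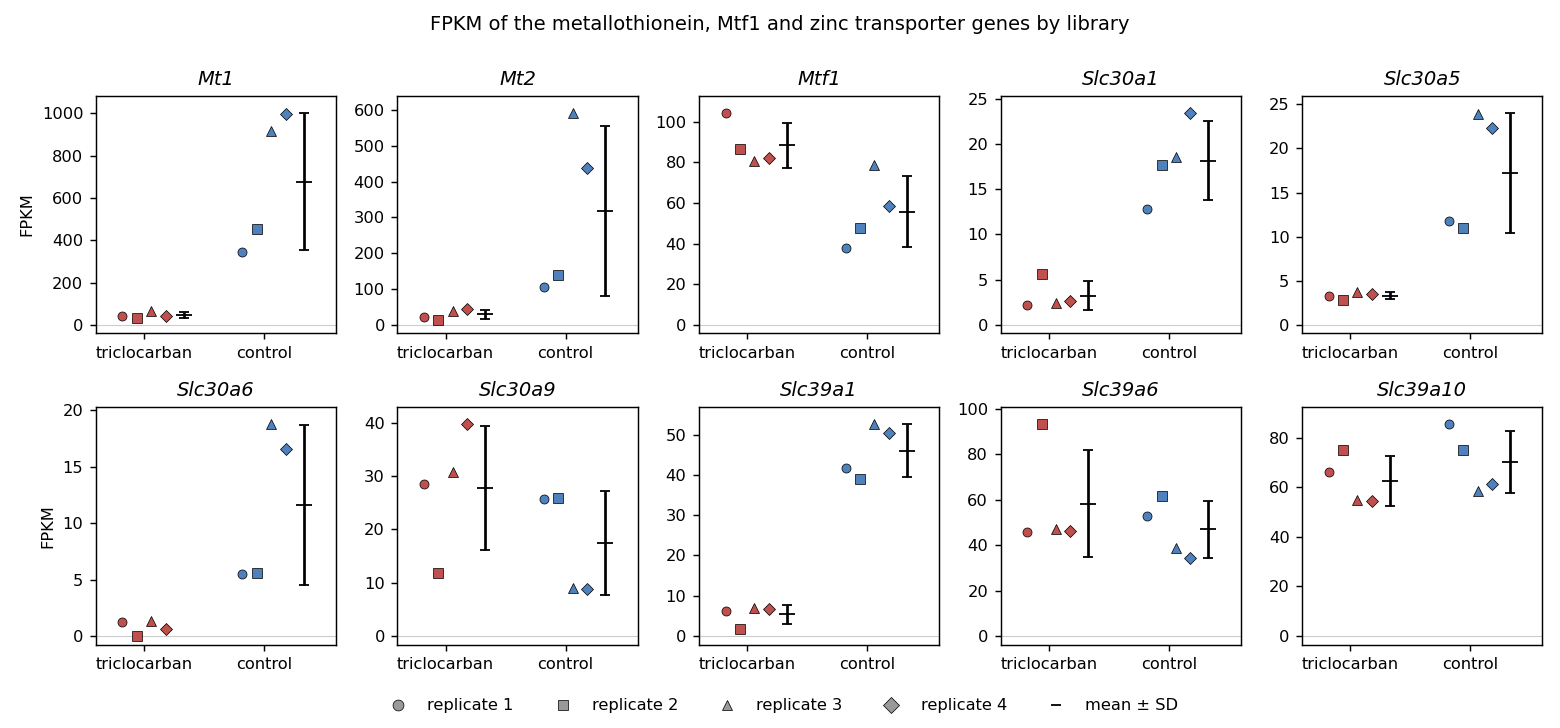
FPKM of the 10 genes in each library, with a panel per gene, triclocarban libraries in red and control libraries in blue, a marker shape per replicate number, and bars for the mean ± SD of groups with no value at 0. For Mt1, Mt2, Slc30a1, Slc30a5, Slc30a6 and Slc39a1 every red point lies below every blue one, and for Mtf1 every red point lies above.

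Mt1 encodes the metallothionein that, with its neighbour's product, is the form found in most mouse tissues (ENSMUSG00000031765.6, chr8:94179082-94180327, plus strand). Its FPKM was 42.3, 32.1, 65.5 and 41.1 in triclocarban replicates 1 to 4, against 345.1, 453.3, 914.9 and 996.5 in controls 1 to 4. All treated libraries lay far below all controls, and controls 1 and 2 lay below controls 3 and 4. The mean was 45.3 ± 14.2 FPKM with triclocarban and 677.4 ± 326.0 in controls (SD, n = 4 each), 14.97-fold lower with triclocarban. The log2(FPKM + 1) change was -3.78 (SE 0.38, limma adjusted p = 5.67e-05), number 33 among the falls of all 12941 tested genes by size. By mean level, Mt1 stood at percentile 86.5 of the tested genes with triclocarban and at 99.5 in controls.

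Mt2 encodes the second widely expressed metallothionein and lies 5513 bases before Mt1 on the same strand (ENSMUSG00000031762.6, chr8:94172664-94173568). Its FPKM was 23.0, 14.0, 37.5 and 42.9 in triclocarban replicates 1 to 4, against 104.8, 137.7, 592.6 and 438.1 in controls 1 to 4. The groups did not overlap, though controls 3 and 4 averaged 4.25 times controls 1 and 2. The mean was 29.3 ± 13.2 FPKM with triclocarban and 318.3 ± 236.5 in controls (SD, n = 4 each), 10.9-fold lower with triclocarban. The log2(FPKM + 1) change was -3.15 (SE 0.55, limma adjusted p = 0.000953). The exons of Mt2 overlap those of the antisense gene Gm45774, and since the strand setting of the authors' counting is not stated, reads of these genes cannot be told apart.

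Together, Mt1 and Mt2 reached 74.6 ± 24.4 FPKM with triclocarban and 995.7 ± 552.7 FPKM in controls (SD, n = 4 each). That was 0.0137% of the library's summed FPKM with triclocarban and 0.171% in controls. The size of both falls depended on the control pair. The Mt1 change was -4.42 when controls 1 and 2 were left out and -3.15 when controls 3 and 4 were. The Mt2 change was -4.19 when controls 1 and 2 were left out and -2.12 when controls 3 and 4 were (limma adjusted p = 0.000148 and 0.00701).

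The balance between the pair was tested separately. The log2 ratio of Mt2 to Mt1, each as FPKM + 1, was -0.85, -1.14, -0.79 and 0.06 in triclocarban replicates 1 to 4, against -1.71, -1.71, -0.63 and -1.18 in controls 1 to 4. The groups overlapped, and the higher mean with triclocarban rested in part on replicate 4. The difference of 0.63 did not pass an exact two-sided permutation test over the 70 assignments of the libraries (p = 0.171). Leaving out controls 1 and 2 gave 0.22 (exact p = 0.733), and leaving out controls 3 and 4 gave 1.03 (exact p = 0.0667, the smallest that design allows). The coding sequences of Mt1 and Mt2 are identical at 145 of 183 positions and their annotated transcripts share no run longer than 20 bases, while reads were 150 bases long.

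The mouse metallothionein genes lie in a row on chromosome 8, in the order Mt4, Mt3, Mt2 and Mt1, all on the plus strand. Mt4, whose product is known from stratified epithelia (chr8:94137197-94139031), was named after its values were seen. Its FPKM was 51.8, 31.7, 31.2 and 57.5 in triclocarban replicates 1 to 4, against 60.0, 66.1, 25.1 and 15.3 in controls 1 to 4. The groups overlapped and the change of 0.22 (SE 0.45) did not pass the threshold (limma adjusted p = 0.717). Controls 1 and 2 were the higher pair here, the reverse of Mt1 and Mt2, and the change was 1.04 without controls 1 and 2 (adjusted p = 0.0334) and -0.59 without controls 3 and 4 (adjusted p = 0.205). Mt3, known from brain, was listed at no more than 0.376 FPKM in triclocarban libraries and at 0 in all controls, below the filter.

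**Figure D2:**
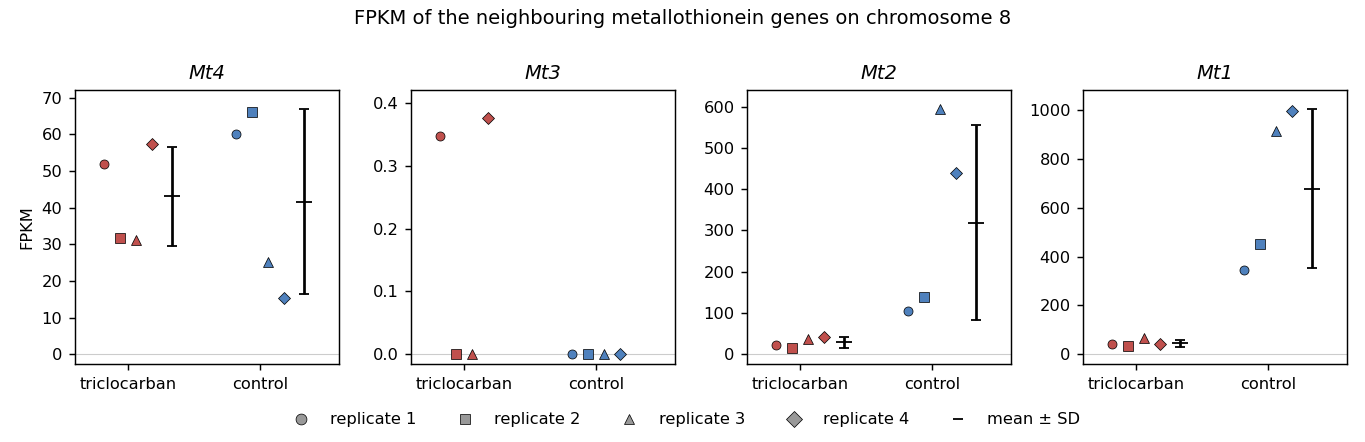
FPKM of Mt4, Mt3, Mt2 and Mt1 in their order along chromosome 8, with triclocarban libraries in red, control libraries in blue, a marker shape per replicate number, and bars for the mean ± SD of groups with no value at 0. Mt2 and Mt1 were lower in every treated library than in any control, while the Mt4 values of the groups overlapped and Mt3 lay near 0.

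Mtf1, the gene of the zinc-sensing factor (ENSMUSG00000028890.6, chr4:124802104-124849800, plus strand), did not fall with the metallothionein genes. Its FPKM was 104.6, 86.6, 80.7 and 82.1 in triclocarban replicates 1 to 4, against 38.1, 47.7, 78.7 and 58.5 in controls 1 to 4. All treated libraries lay above all controls, by a narrow margin at control 3, and 10.2% of tested genes had their treated libraries all above. The mean was 88.5 ± 11.04 FPKM with triclocarban and 55.7 ± 17.5 in controls (SD, n = 4 each), and the change of 0.70 (SE 0.27) missed the threshold (limma adjusted p = 0.0568).

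The Mtf1 call depended on the setting. It passed after median-of-ratios scaling (change 1.00, adjusted p = 0.0170), quantile normalization (0.86, adjusted p = 0.0228) and scaling to an equal FPKM sum (0.78, adjusted p = 0.0329), with library weights (0.68, adjusted p = 0.0251), without control 3 (0.88, adjusted p = 0.0283) and without controls 3 and 4 (1.03, adjusted p = 0.0124). It did not without controls 1 and 2 (0.37, adjusted p = 0.222). Over all 21 alternatives the limma adjusted p ranged from 0.0124 to 0.222, and the change was positive in each. Exons of Mtf1 overlap those of the opposite-strand gene 1110065P20Rik, which had at most 3.34 FPKM in any library.

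Set against each other per library, Mtf1 had 1.603, 1.88, 0.784 and 0.978 times the summed FPKM of Mt1 and Mt2 in triclocarban replicates 1 to 4, against 0.0846, 0.0806, 0.0522 and 0.0408 times in controls 1 to 4. In treated embryos the RNA of the factor was at the level of its best known targets, and in controls it was far below them. These ratios compare levels per length and carry no test.

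Of the 4 SLC30 genes, 3 fell and Slc30a9 did not pass the threshold. Slc30a1, the exporter of the plasma membrane (ENSMUSG00000037434.7, chr1:191906767-191913247, plus strand), had 2.20, 5.66, 2.45 and 2.61 FPKM in triclocarban replicates 1 to 4, against 12.9, 17.7, 18.6 and 23.5 in controls 1 to 4. The groups did not overlap, and triclocarban replicate 2 was the highest treated library. The mean was 3.23 ± 1.63 FPKM with triclocarban and 18.2 ± 4.36 in controls (SD, n = 4 each), with a change of -2.22 (SE 0.31, limma adjusted p = 0.000240). Without triclocarban replicate 2 the change was -2.46. The opposite-strand gene 1700034H15Rik, whose exons overlap those of Slc30a1, was also lower in every treated library than in any control, with 0.186 to 0.929 FPKM in treated and 2.41 to 9.85 FPKM in control libraries, and its share in the Slc30a1 reads was not tested.

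Slc30a5 and Slc30a6 encode partners that together load zinc into the early secretory pathway. Slc30a5 (ENSMUSG00000021629.8, chr13:100802648-100833427, minus strand) had 3.28, 2.84, 3.68 and 3.48 FPKM in triclocarban replicates 1 to 4, against 11.8, 10.9, 23.9 and 22.3 in controls 1 to 4. The treated libraries were close together and all lay below the controls. The mean was 3.32 ± 0.36 FPKM with triclocarban and 17.2 ± 6.83 in controls (SD, n = 4 each), with a change of -2.003 (SE 0.30, limma adjusted p = 0.000391). Slc30a6 (ENSMUSG00000024069.5, chr17:74395608-74424221, plus strand) had 1.28, 0, 1.33 and 0.642 FPKM in triclocarban replicates 1 to 4, against 5.53, 5.54, 18.8 and 16.6 in controls 1 to 4. Replicate 2, the library of lowest estimated depth, listed the gene at 0, and all treated values were below all controls. The change was -2.68 (SE 0.43, limma adjusted p = 0.000584), and it was -4.02 with a pseudocount of 0.1 and -1.42 with a pseudocount of 5 in place of 1. Both partners were higher in controls 3 and 4 than in controls 1 and 2, by 2.03 times for Slc30a5 and 3.20 times for Slc30a6. Leaving out controls 1 and 2 gave changes of -2.48 for Slc30a5 and -3.44 for Slc30a6, and leaving out controls 3 and 4 gave -1.52 and -1.93, all past the threshold.

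Slc30a9, a relative that acts on mitochondrial zinc (ENSMUSG00000029221.8, chr5:67306955-67358443, plus strand), had 28.5, 11.8, 30.8 and 39.8 FPKM in triclocarban replicates 1 to 4, against 25.7, 26.0, 9.03 and 8.86 in controls 1 to 4. The groups overlapped, since controls 1 and 2 reached treated levels. The mean was 27.8 ± 11.7 FPKM with triclocarban and 17.4 ± 9.75 in controls (SD, n = 4 each), and the change of 0.70 (SE 0.45) did not pass the threshold (limma adjusted p = 0.239). The pair of controls decided its value, which was 1.41 without controls 1 and 2 (adjusted p = 0.0245) and -0.02 without controls 3 and 4 (adjusted p = 0.979). It also passed with library weights (0.93, adjusted p = 0.0441), and no other alternative brought it past the threshold.

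Among the 3 SLC39 importers, Slc39a1 fell and Slc39a6 and Slc39a10 did not pass the threshold. Slc39a1, a widely expressed importer of the plasma membrane (ENSMUSG00000052310.9, chr3:90248172-90253612, plus strand), had 6.22, 1.79, 6.84 and 6.67 FPKM in triclocarban replicates 1 to 4, against 41.7, 39.1, 52.7 and 50.3 in controls 1 to 4. Its controls were the most even of the genes that fell, and triclocarban replicate 2 was the lowest library. The mean was 5.38 ± 2.41 FPKM with triclocarban and 45.9 ± 6.58 in controls (SD, n = 4 each), 8.54-fold lower with triclocarban. The change was -2.98 (SE 0.35, limma adjusted p = 0.000106), and -2.62 without triclocarban replicate 2. Without controls 1 and 2 it was -3.15, and without controls 3 and 4 it was -2.81.

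Slc39a6 and Slc39a10 encode importers that bind each other and are known for zinc uptake by the maturing mouse oocyte. Slc39a6 (ENSMUSG00000024270.5, chr18:24579881-24603817, minus strand) had 45.7, 93.5, 47.2 and 46.4 FPKM in triclocarban replicates 1 to 4, against 53.1, 61.7, 38.7 and 34.4 in controls 1 to 4. Replicate 2 alone stood above the controls, and the other treated libraries lay among them. The mean was 58.2 ± 23.6 FPKM with triclocarban and 47.0 ± 12.7 in controls (SD, n = 4 each), with a change of 0.27 (SE 0.31, limma adjusted p = 0.515), of 0.02 without triclocarban replicate 2 and of -0.05 without controls 3 and 4. Slc39a10 (ENSMUSG00000025986.5, chr1:46807544-46892852, minus strand) had 66.1, 74.9, 54.7 and 54.2 FPKM in triclocarban replicates 1 to 4, against 85.5, 75.0, 58.3 and 61.5 in controls 1 to 4. The groups overlapped, and the mean was 62.5 ± 9.91 FPKM with triclocarban and 70.1 ± 12.6 in controls (SD, n = 4 each). The change of -0.16 (SE 0.24) did not pass the threshold (limma adjusted p = 0.630), and it was 0.14 after median-of-ratios scaling. Of all pairs of the 10 genes, these partners had the most similar profiles over the 8 libraries, with a root mean square difference of 0.33 on the centred log2(FPKM + 1) scale. They also had the smallest changes of the 10 genes, and this measure is small for any genes that vary little. Whether the partners are regulated together was not tested.

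**Figure D3:**
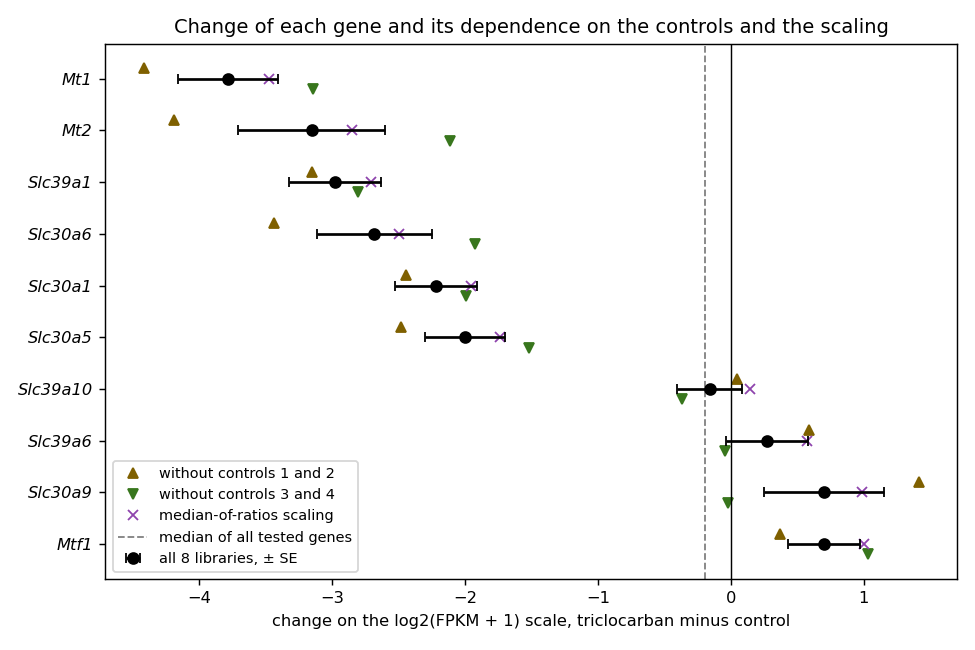
Change of each gene on the log2(FPKM + 1) scale, triclocarban minus control, with all 8 libraries (black, ± SE), without controls 1 and 2, without controls 3 and 4, and after median-of-ratios scaling, with a dashed line at the median of all tested genes (-0.19). The 6 genes at the top stay at -1.52 or below in these settings, and the other 4 lie around 0 or above it and cross 0 for Slc39a10, Slc39a6 and Slc30a9.

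The order of levels differed between the groups. With triclocarban, Mtf1 had the highest mean (88.5 FPKM) and did not overlap the next by mean, Slc39a10 (62.5). Mtf1 did overlap Slc39a6 (58.2), which was the higher of these in triclocarban replicate 2 (93.5 against 86.6 FPKM). From Slc39a10 down, Slc39a6, Mt1 (45.3), Mt2 (29.3) and Slc30a9 (27.8) each overlapped their neighbours in range. A gap separated these from Slc39a1 (5.38), Slc30a5 (3.32) and Slc30a1 (3.23), which overlapped each other, and Slc30a6 was below all of them. In controls, Mt1 (677.4 FPKM) and Mt2 (318.3) overlapped each other and lay above the rest. Below them, Slc39a10 (70.1), Mtf1 (55.7), Slc39a6 (47.0) and Slc39a1 (45.9) overlapped in turn, as did Slc30a1 (18.2), Slc30a9 (17.4), Slc30a5 (17.2) and Slc30a6 (11.6) after a gap.

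Genes with profiles most like those of the 3 genes that changed most were sought among 10315 named protein-coding genes, by the root mean square difference of the centred log2(FPKM + 1) values over the 8 libraries. Among the nearest to Mt1 were Selenos (0.14) and H2-Q6 (0.19), which has close copies. The nearest to Mt2 were Rps26 (0.21), Utp23 (0.22) and Fbxo6 (0.24). The nearest to Slc39a1 were Abt1 (0.17), Glul (0.18) and D16Ertd472e (0.19). Mt1 and Mt2 themselves differed by 0.55, and each had nearer neighbours among the 10315 genes searched. The best of so many genes tends to lie nearer than 1 fixed partner, so this is no measure of shared regulation.

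Of 21 other zinc genes, 8 were tested, with a median change of -0.56. Of these 8, 4 were lower, 1 was higher and 3 did not pass the threshold, where 30.8% of all tested genes were lower and 11.3% higher. All 4 that fell passed the filter through their controls, with fewer than 4 treated libraries at 1 FPKM. Slc39a4, the intestinal zinc importer, had 1.18, 0.0937, 1.301 and 0.978 FPKM in triclocarban replicates 1 to 4, against 7.30, 6.10, 36.97 and 27.9 in controls 1 to 4, with a change of -3.14 (limma adjusted p = 0.000738). The exporter gene Slc30a2 changed by -1.35 (adjusted p = 0.00854), the importer gene Slc39a9 by -1.40 (adjusted p = 0.00900) and Cbwd1, which belongs to a family of zinc chaperones, by -2.27 (adjusted p = 0.0122). The Cbwd1 change was -3.46 without controls 1 and 2, and its call was lost without controls 3 and 4 (-1.08, adjusted p = 0.135) and with no filter (adjusted p = 0.0506). The call of Slc30a2 was lost without controls 1 and 2 (-0.82, adjusted p = 0.0563), and that of Slc39a9 after quantile normalization (-0.995, adjusted p = 0.0523). Without controls 3 and 4, Slc39a9 changed by -0.74 and Slc39a4 by -2.08, both still past the threshold.

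The 1 higher gene of that list was Slc30a3, a transporter known for filling synaptic vesicles with zinc, which was named after its values were seen. It had 121.5, 79.1, 111.5 and 118.8 FPKM in triclocarban replicates 1 to 4, against 80.4, 59.8, 9.42 and 9.33 in controls 1 to 4. Controls 1 and 2 came close to the treated libraries, and control 1 was above triclocarban replicate 2. Its change was 1.99 (SE 0.63, limma adjusted p = 0.0238), against 3.37 without controls 1 and 2 (adjusted p = 5.75e-05) and 0.61 without controls 3 and 4 (adjusted p = 0.133). Leaving out any 1 of controls 3 and 4 or of triclocarban replicates 1, 3 and 4 also ended the call, with adjusted p from 0.0520 to 0.0693, as did testing with no filter (adjusted p = 0.0820).

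**Figure D4:**
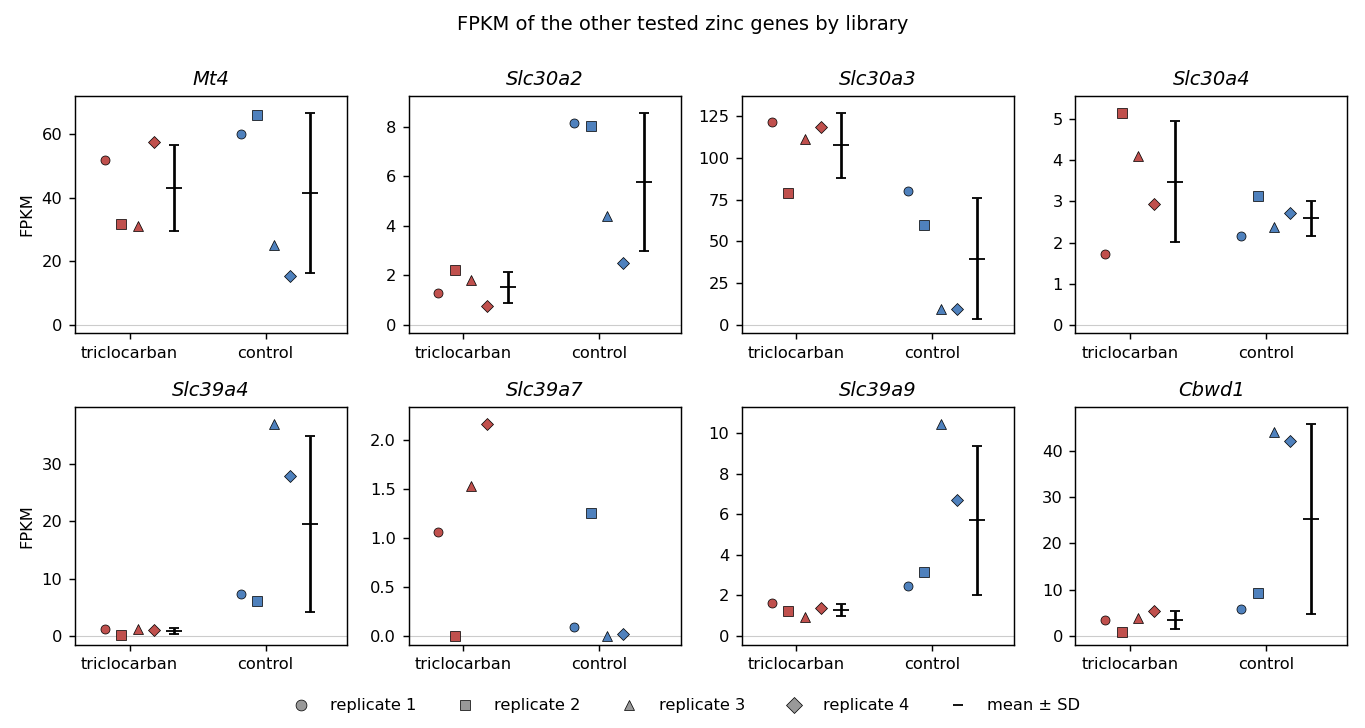
FPKM of the 8 other zinc genes that were tested, with triclocarban libraries in red, control libraries in blue, a marker shape per replicate number, and bars for the mean ± SD of groups with no value at 0. Slc30a2, Slc39a4, Slc39a9 and Cbwd1 were lower in every treated library than in any control, and Slc30a3 was near 9 FPKM in controls 3 and 4 and between 59.8 and 121.5 FPKM in the other libraries.

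Metallothioneins also bind copper. Of 10 copper handling genes tested, 6 fell, 0 rose and 4 did not pass the threshold, with a median change of -1.33. Among all tested genes 30.8% were lower and 11.3% higher. Among the 6, Sco1, Sco2 and Ccs, the copper chaperone gene of superoxide dismutase, passed the filter through their controls. The copper importer gene Slc31a1 had 11.3 ± 3.26 FPKM with triclocarban and 35.2 ± 6.82 in controls (SD, n = 4 each), a change of -1.59 (limma adjusted p = 0.00116). The copper chaperone genes of cytochrome c oxidase Sco1 and Sco2 changed by -1.91 and -1.73 and Cox11 by -1.43 (limma adjusted p = 0.000209, 0.000142 and 0.00532), and Sco2 was listed at 0 in triclocarban replicate 2. The Cox11 change was -0.88 without controls 1 and 2, still past the threshold. At an unadjusted p under 0.05, 0 genes of the list were higher, and the share of all tested genes there was not counted. Without controls 3 and 4 the count of lower genes was 4, and it was 7 without controls 1 and 2.

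Of 14 iron handling genes tested, 5 fell, 1 rose and 8 did not pass the threshold, with a median change of -0.44. For comparison, 30.8% of all tested genes were lower and 11.3% higher. Among the 5, Slc40a1, the iron exporter gene, passed the filter through its controls. The transferrin receptor gene Tfrc, whose product takes up iron, had 14.3 ± 2.01 FPKM with triclocarban and 75.7 ± 26.99 in controls (SD, n = 4 each), a change of -2.27 (limma adjusted p = 0.000179). The mitochondrial iron importer gene Slc25a28 changed by -1.98 and the iron importer gene Slc11a2 by -1.16. Ncoa4, the receptor that delivers ferritin to lysosomes, was the higher one, with 63.2 ± 9.71 FPKM with triclocarban and 23.7 ± 8.88 in controls (SD, n = 4 each), a change of 1.44 (adjusted p = 0.00256). The count of lower genes was 3 without triclocarban replicate 1, with no filter or with a filter of 5 FPKM, and the count of higher genes was 2 without controls 1 and 2.

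Of 11 genes of the metal and oxidative stress response, 4 fell, 0 rose and 7 did not pass the threshold. Among all tested genes 30.8% were lower and 11.3% higher. The median change of the list was -0.14, close to that of all tested genes. At an unadjusted p under 0.05, 1 gene of this list, Txnrd1, was higher, and the share of all tested genes there was not counted. The heat shock genes Hspa1a and Hspa1b, near-identical copies whose reads may be shared, changed by -2.06 and -1.03, the gene of the stress sensor Keap1 by -0.97 and that of the glutathione synthesis enzyme Gclc by -1.41 (limma adjusted p = 0.0177). All 4 had been at or above 1 FPKM in every control and in fewer treated libraries. The call of Gclc was lost without control 3 (adjusted p = 0.0503) or without triclocarban replicate 1 or 4 (adjusted p = 0.0549 and 0.0554), without controls 3 and 4 (change -0.72, adjusted p = 0.178), after median-of-ratios scaling (adjusted p = 0.0508) or quantile normalization (adjusted p = 0.0909), and with no filter (adjusted p = 0.0603). Quantile normalization also ended the calls of Keap1 (adjusted p = 0.0595) and Hspa1b (adjusted p = 0.111), which was also lost without controls 3 and 4 (adjusted p = 0.0745). In the other direction, 2 genes of this list were higher after quantile normalization, after median-of-ratios scaling or without controls 1 and 2. The count of lower genes was 2 without controls 3 and 4, 1 after quantile normalization and 0 with a filter of 5 FPKM.

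**Figure D5:**
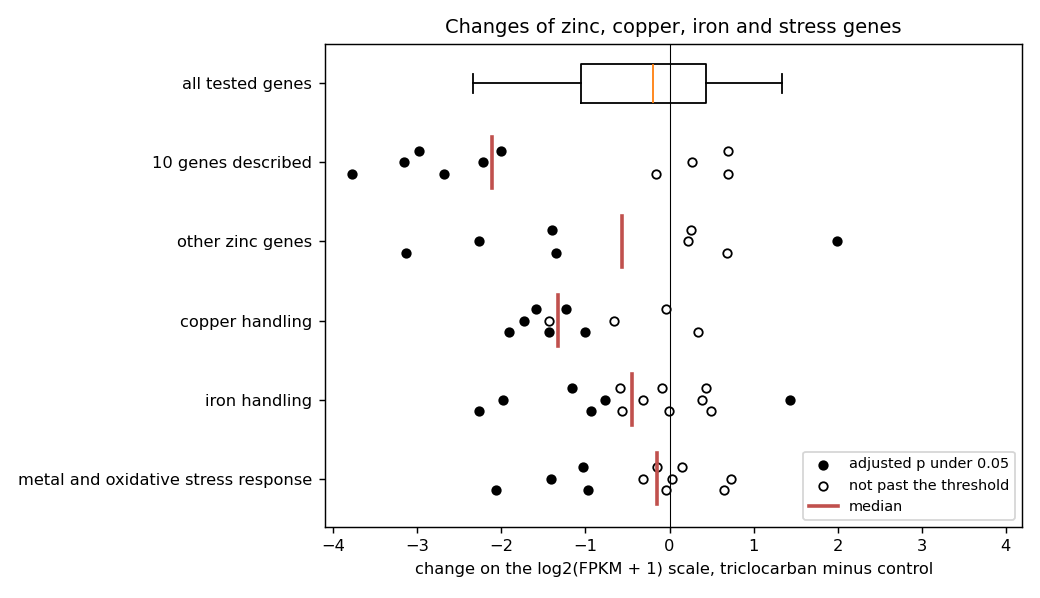
Change of each tested gene on the log2(FPKM + 1) scale, triclocarban minus control, in the 10 genes described and in the 4 other lists, with filled points for adjusted p under 0.05, red bars for list medians, and above them a box for all tested genes (quartiles, with whiskers from the 5th to the 95th percentile). The median of the 10 genes lies at -2.11 and those of the other lists between -1.33 and -0.14.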

How the data were processed

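Each library's FPKM column was deposited by the authors in a single table. The submitters' processing notes name STAR, StringTie, featureCounts, DESeq2 1.30.1 and the build mm10, without roles. No annotation release or strand setting is stated. Per the labels' protocols, cDNA was amplified before fragmentation. FPKM is relative to the whole library, so abundant transcripts shift the others. Fragment counts could not be recovered: 5.78 to 8.05% of low values lay within 0.02 of a whole count, where chance gives 4%.

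Identifiers were matched to GENCODE M21 (GRCm38) for symbols, exon overlaps and 1-based coordinates (87.4% matched). Genes at 1 FPKM or more in 4 or more libraries were tested with limma 3.58.1 (trend) in R 4.3.3 on log2(FPKM + 1), and p-values were adjusted by Benjamini-Hochberg across all tested genes. That scale understates changes of low genes. The limma step was tested on simulated data. Other calculations used Python 3.11.15. The 10 genes, the other lists, the naming rule (up to 4 called genes per list, by adjusted p) and the alternatives were chosen with earlier results of these data known. Alternatives for the other lists were added after seeing the data. One of the genes with profiles nearest to Mt1 is not reported here.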

Additional observations from a re-analysis of the deposited data

Results flagged for a closer look

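In triclocarban replicate 2, the library of lowest estimated depth, 3 of the 10 genes lay far from the other treated libraries on the log2(FPKM + 1) scale, by Dixon's test of the gap to the nearest library. Slc30a1 was at 2.735 there, the highest of its group, with a gap of 0.834 of the range. Slc39a1 was at 1.48, the lowest of its group, with a gap of 0.921 of the range. Slc39a6 was at 6.563, the highest of its group, with a gap of 0.954 of the range. Of 22 groups checked, 3 stood out in this way, all through this library, and chance gives about 1 in 20 groups. Without this library Slc30a1 changed by -2.46 and Slc39a1 by -2.62, and both still passed the threshold (limma adjusted p = 0.000235 and 0.000158).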

How the results depend on the processing

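Under all 21 alternatives the same 6 genes fell: Mt1, Mt2, Slc30a1, Slc30a5, Slc30a6 and Slc39a1, with limma adjusted p of at most 0.00797. The number of the 10 genes that rose was 0, and 1 after median-of-ratios scaling, quantile normalization, scaling to an equal FPKM sum, without controls 1 and 2 or without controls 3 and 4, 2 with library weights, and 0 to 1 when any 1 library was left out. Signs turned for Slc30a9 (-0.018) and Slc39a6 (-0.047) without controls 3 and 4, and for Slc39a10 with median-of-ratios scaling (0.14), quantile normalization (0.010) and without controls 1 and 2 (0.048); the cause was not tested. Mt4 turned to -0.59 without controls 3 and 4, and ranged from -0.16 to 0.52 with 1 library left out. Of all tested genes 1466 were higher and 3981 lower. The higher count was 2638 (3187 lower) with median-of-ratios scaling, 2915 (2847 lower) with quantile normalization, 2838 without controls 1 and 2, 695 without controls 3 and 4, and 953 to 1860 with 1 library left out. The lower count was 2492 with a filter of 5 FPKM, which tests fewer genes. These scalings moved the median change of all genes from -0.19 to 0.06 and 0.14. Replicate numbers were not taken to pair libraries. This choice rested on log2(FPKM + 1) values with each gene's mean within its group subtracted. On these values same-numbered libraries correlated at only 0.053 to 0.338, though 6 of 8 libraries correlated best with their own number. Without the subtraction, treated and control libraries correlated at 0.696 to 0.884. With a replicate block 1544 genes were higher and 4061 lower, and the 10 genes kept 6 lower and 0 higher. The depth of each library is known only roughly, so values under 1 FPKM carry no counting interval.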
